A study of Mus musculus with 8 samples.

Results

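The liver X receptors (LXRs) and their target genes were followed in cultured mouse hematopoietic stem and progenitor cells (HSPCs), bone marrow cells that give rise to all blood lineages. The set was a fixed list of 10 genes, found by symbol among the 48709 gene identifiers of the count files: both receptors (Nr1h2 and Nr1h3) and 8 targets (Abca1, Abcg1, Mylip, Lpcat3, Srebf1, Apoe, Pltp and Arl4c). All 10 passed the filter on low counts, as did 12696 genes in all. The malonyl-CoA group held 4 libraries from HSPCs of C57Bl/6J mice grown without serum for 7 days at 100 µM malonyl-CoA, and the control group 4 libraries from the same culture without it. Both groups had no genetic change named in the labels, began from 10000 sorted cells (without lineage markers, with Sca1 and cKit) per well, and received 2 cytokines, 100 ng/ml of stem cell factor and 2 ng/ml of Flt3 ligand. RNA came from the progeny of the seeded cells, so the libraries describe mixed cultures after 7 days. In such bulk samples fewer cells of a type and less RNA per cell cannot be told apart. Libraries were numbered 1, 3, 4 and 5 in each group. They are described as biological replicates, with no word on whether each came from its own animal or pool, so p-values measure the spread between these samples.

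LXRs are nuclear receptors for oxidised cholesterol derivatives and for desmosterol, a precursor of cholesterol. LXRα is encoded by Nr1h3 and is typical of liver, fat and macrophages, and LXRβ is encoded by Nr1h2 and is found in most tissues. Each binds DNA as a heterodimer with a retinoid X receptor, holds target genes down with corepressors when no ligand is bound, and turns them on when ligand is present. The targets move cholesterol out of the cell, lower its uptake, remodel phospholipids and drive fatty acid synthesis, in which malonyl-CoA supplies the units that lengthen the chain.

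The promoters of Abca1 and Srebf1 are shown because both hold the same LXR-type element near the start of transcription. The lines give the 250 bases before a RefSeq start on GRCm38.p6, 5′ to 3′ on the gene's own (minus) strand, at chr4:53159896-53160145 for Abca1 and chr11:60210472-60210721 for Srebf1. Capitals mark the element.
Abca1: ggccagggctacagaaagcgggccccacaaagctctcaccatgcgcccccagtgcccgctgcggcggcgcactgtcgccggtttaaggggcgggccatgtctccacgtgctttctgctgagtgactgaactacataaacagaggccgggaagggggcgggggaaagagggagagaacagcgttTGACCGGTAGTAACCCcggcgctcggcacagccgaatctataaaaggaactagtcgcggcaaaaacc
Srebf1: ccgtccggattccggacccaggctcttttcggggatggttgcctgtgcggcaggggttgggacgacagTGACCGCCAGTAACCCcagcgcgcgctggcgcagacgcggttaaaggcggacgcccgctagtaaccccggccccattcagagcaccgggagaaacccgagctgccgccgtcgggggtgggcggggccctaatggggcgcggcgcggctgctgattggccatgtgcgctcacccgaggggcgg

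Read on the opposite strand, the element is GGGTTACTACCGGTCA in Abca1, at positions -67 to -52 from the start, and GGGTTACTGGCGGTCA in Srebf1, at positions -182 to -167. The pair were identical at 14 of 16 bases. Counted from the 5′ end of that strand, the substitutions from Abca1 to Srebf1 were A9G and C10G, both in the spacer. Each differs at 3 of 12 fixed bases from the textbook repeat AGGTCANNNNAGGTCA, in which the 2 hexamers lie 4 bases apart. With that tolerance, and both strands searched, the repeat lay in 21.9% of 32851 RefSeq windows of 250 bases before to 50 after a start, and in 3 of 14 windows of 9 members (Abca1, Arl4c and 1 of 3 Srebf1 starts). The letters read from Abca1 and Srebf1, GGGTTACTNNCGGTCA, lay on either strand in 3 of the 32851 windows. Of these, 2 were the Abca1 and Srebf1 windows themselves, fixed by taking the letters from them. The third was that of Fasn, the fatty acid synthase gene, at chr11:120824757-120824772 and positions -225 to -210 from its start. The counts sum all starts of a gene, so transcripts from the Srebf1 start with the element were not measured apart. A match describes letters and is not a measured binding site, and absence of a match says only that these letters are not in that window.

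Counts assigned to genes ranged from 17492085 to 22079844 per library, and all pairs of libraries differed by more than sampling noise. Malonyl-CoA 4 stood apart on the leading principal component, at 53.9 with control 4 next at 20.5. Of its tallied reads, 2.94% fell in no counted feature, where the other 7 had 1.11% to 1.56%. Libraries also differed in how counts followed GC content, given as the rank correlation across 10288 genes of each gene's deviation with its GC content. It was 0.53, 0.24, 0.22 and 0.22 in malonyl-CoA 1, 3, 4 and 5. In controls 1, 3, 4 and 5 it was -0.08, -0.06, 0.23 and -0.76. These are descriptions of the libraries, since genes are not independent replicates. The relation to GC content partly followed the groups. A correction for GC content and length may thus also take out part of a group difference, which was not tested. Of the 12696 genes, 0 passed an adjusted p of 0.05 in edgeR's quasi-likelihood test (0.0% called) and 1191 had an unadjusted p under 0.05 (9.38%). DESeq2 called 82 genes and limma-voom 0.

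Among the 10 genes, per-length levels spanned the range from Lpcat3 to Abca1. Levels in this comparison are TMM-normalised CPM (counts scaled to the library's total) per kilobase of merged exons, as mean ± SD over all 8 libraries. Lpcat3, which puts polyunsaturated fatty acids into phospholipids, stood at 37.9 ± 3.34 CPM per kilobase, and Srebf1, the transcription factor SREBP-1 of fatty acid synthesis, at 25.8 ± 6.58. The widely expressed receptor gene Nr1h2 followed at 14.3 ± 2.87 and the apolipoprotein E gene Apoe at 12.0 ± 1.73. Pltp, a secreted carrier of phospholipids between lipoproteins, had 6.03 ± 2.03 and Arl4c, a small GTPase of the ARF-like family, 4.62 ± 0.64 CPM per kilobase.

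The lower end held Mylip at 2.64 ± 0.92, Abcg1 at 2.27 ± 0.46, Nr1h3 at 0.850 ± 0.26 and Abca1 at 0.437 ± 0.21 CPM per kilobase. The ranges of Apoe and Pltp were apart, as were those of Abcg1 and Nr1h3, and every other pair of neighbours in this order overlapped. Within libraries, the order of neighbours held in all 8 for Srebf1 over Nr1h2, in 7 for Nr1h2 over Apoe and for Nr1h3 over Abca1, and in 5 for Mylip over Abcg1.

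**Figure D1:**
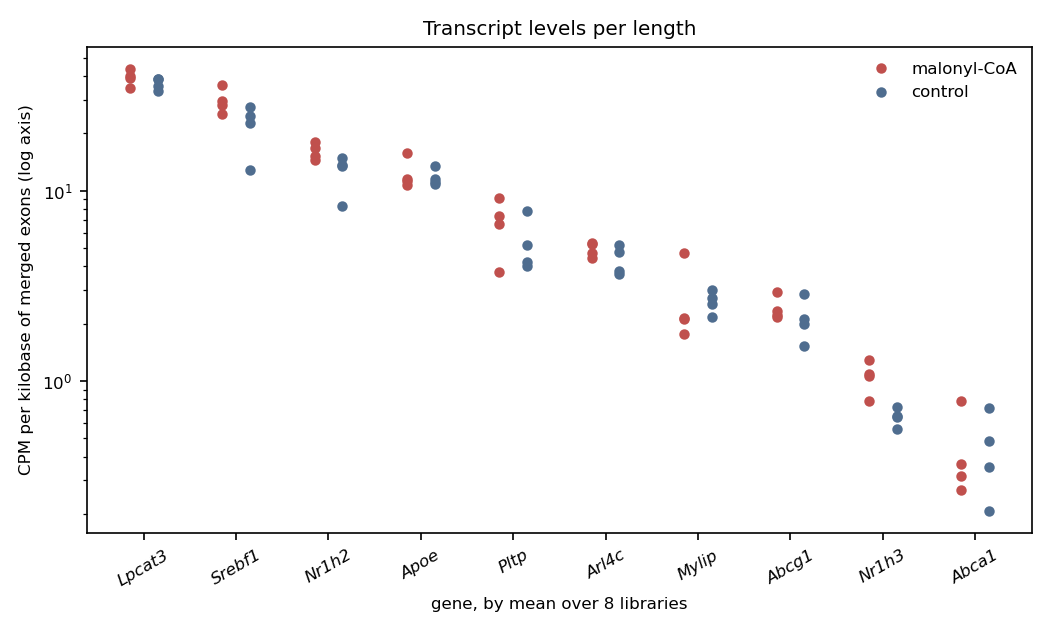
Level of each gene in each library, in TMM-normalised CPM per kilobase of merged exons on a log axis, ordered by the mean over 8 libraries. Malonyl-CoA libraries are red and stand left of the blue control libraries; the order runs from Lpcat3 at 37.9 to Abca1 at 0.437 CPM per kilobase.

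Did the LXR genes differ between cultures with malonyl-CoA and control cultures? None of the 10 passed the adjusted threshold in edgeR (0.0% of all tested genes called), DESeq2 (0.591%) or limma-voom (0.0%), nor with a replicate block (0.992%), with a correction for GC content and length (0.0%), with both (0.299%), with no low-count filter (0.00458%) or without both libraries numbered 4 (0.0%). In edgeR, 1 of the 10, Nr1h3, had an unadjusted p under 0.05, where 5.33% of all tested genes did so in the higher and 4.05% in the lower direction. The log2 fold change of malonyl-CoA over control was above 0 in 9 of the 10, where 53.3% of all tested genes were above 0. Its median was 0.18 over the 10 genes and 0.02 over all tested genes. The groups did not overlap in 1 of the 10, again Nr1h3, where 6.14% of all tested genes had groups apart in either direction 3.21% with malonyl-CoA above control and 2.93% below it. After correction for GC content and length, 7 of the 10 were above 0 and their median was 0.02, where 44.8% of all tested genes were above 0 and their median was -0.03.

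Of the receptor genes, Nr1h3 had its groups apart and Nr1h2 did not. Nr1h3 (ENSMUSG00000002108, chr2:91184061-91202834, minus strand), for LXRα, had 2.68, 3.22, 1.97 and 2.72 CPM in malonyl-CoA 1, 3, 4 and 5, against 1.65, 1.83, 1.63 and 1.41 CPM in controls 1, 3, 4 and 5. Every malonyl-CoA library stood above every control library, with malonyl-CoA 4 closest to the controls. Means were 2.65 ± 0.52 and 1.63 ± 0.17 CPM (SD, n = 4 each), a log2 fold change of 0.70 (SE 0.21), with an unadjusted p of 0.00898 and an adjusted p of 0.432 in edgeR's quasi-likelihood test.

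These levels rest on few reads. Nr1h3 had 55, 66, 44 and 46 counts in the malonyl-CoA libraries, with a counting error of 12.3% to 15.1%, and 29, 34, 35 and 30 counts in the control libraries, with a counting error of 16.9% to 18.6%. Its log2 fold change stayed positive under all 22 other settings, from 0.51 to 0.81, with adjusted p from 0.0985 to 0.891, and was 0.52 (SE 0.20) after the correction for GC content and length. Its p was the 260th smallest of 12696.

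Nr1h2 (ENSMUSG00000060601, chr7:44549616-44553951, minus strand), for LXRβ, had 56.1, 51.0, 60.3 and 48.8 CPM in the malonyl-CoA libraries, against 45.5, 50.1, 45.2 and 27.9 CPM in the control libraries, each in the order 1, 3, 4 and 5. The groups overlapped, with control 5 far below all other libraries. Nr1h2 had a log2 fold change of 0.36 (SE 0.18), with an adjusted edgeR p of 0.523. It was 0.20 without control 5 and 0.01 (SE 0.09) after the correction for GC content and length.

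LXRα made up a minor share of the receptor transcripts in both groups. Per length, Nr1h3 was 5.99%, 7.78%, 4.17% and 6.92% of both receptors in malonyl-CoA 1, 3, 4 and 5, against 4.62%, 4.64%, 4.59% and 6.31% in controls 1, 3, 4 and 5. The groups overlapped, since malonyl-CoA 4 had the lowest share of all 8 libraries and control 5 the highest among controls. In control 5 both receptor genes were at their lowest CPM of the 8 libraries. The share was not computed on values corrected for GC content. Means were 6.21% ± 1.55 and 5.04% ± 0.85 (SD, n = 4 each).

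**Figure D2:**
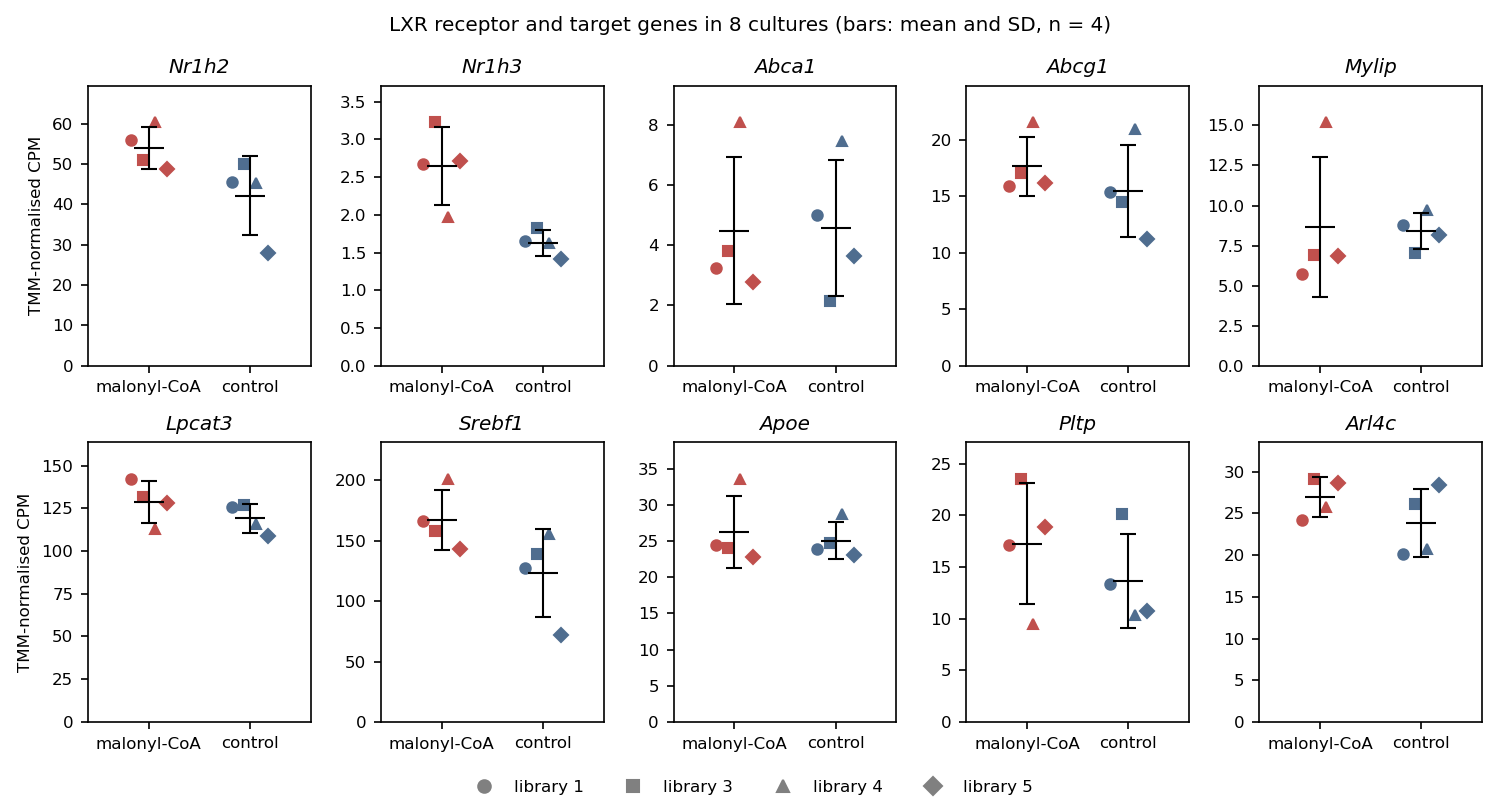
TMM-normalised CPM of the 10 genes in each library, with malonyl-CoA left and control right in every panel; marker shapes give the library number, and bars the mean and SD of 4 libraries. Nr1h3 alone has groups that do not overlap (1.97 to 3.22 against 1.41 to 1.83 CPM).

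The cholesterol efflux transporters did not pass the test. Abca1 (ENSMUSG00000015243, chr4:53030787-53159895, minus strand), which loads cholesterol onto apolipoprotein A-I, had 3.26, 3.81, 8.08 and 2.78 CPM in malonyl-CoA 1, 3, 4 and 5, against 5.02, 2.15, 7.45 and 3.66 CPM in controls 1, 3, 4 and 5. The highest value of each group was in its library numbered 4, and the groups covered nearly the same range. Means were 4.48 ± 2.44 and 4.57 ± 2.25 CPM (SD, n = 4 each). Abca1 had a log2 fold change of -0.02 (SE 0.43, adjusted edgeR p 0.983). This sign changed when a single library was left out: 0.02 without control 1, 0.32 without control 4, and 0.10, 0.05 and 0.14 without malonyl-CoA 1, 3 and 5.

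Abcg1 (ENSMUSG00000024030, chr17:31057675-31117988, plus strand), which passes cholesterol to high-density lipoprotein, had 15.9, 17.1, 21.5 and 16.1 CPM in malonyl-CoA 1, 3, 4 and 5, against 15.3, 14.5, 21.0 and 11.2 CPM in controls 1, 3, 4 and 5. Both libraries numbered 4 again stood above the rest. Abcg1 had a log2 fold change of 0.19 (SE 0.20, adjusted edgeR p 0.681). It was 0.06 without control 5, 0.07 without malonyl-CoA 4, 0.37 without control 4 and -0.06 after the correction for GC content and length.

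Mylip and Lpcat3 act on lipid uptake and on membranes. Mylip (ENSMUSG00000038175, chr13:45389742-45412022, plus strand), a ubiquitin ligase that limits lipoprotein uptake, had 5.70, 6.94, 15.2 and 6.86 CPM in malonyl-CoA 1, 3, 4 and 5, against 8.78, 7.05, 9.69 and 8.17 CPM in controls 1, 3, 4 and 5. The value of malonyl-CoA 4 was the highest of all 8, and the other 3 malonyl-CoA libraries lay below every control. Mylip had a log2 fold change of 0.04 (SE 0.30, adjusted edgeR p 0.958), and it was -0.38 without malonyl-CoA 4, -0.03 without control 3 and -0.31 without both libraries numbered 4.

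Lpcat3 (ENSMUSG00000004270, chr6:124663027-124704418, plus strand) had 142, 132, 113 and 128 CPM in malonyl-CoA 1, 3, 4 and 5, against 125, 127, 116 and 109 CPM in controls 1, 3, 4 and 5. It varied least among the 10 genes, with the highest library at 1.31 times the lowest, where Abca1 had 3.76. The groups overlapped through malonyl-CoA 4. The log2 fold change was 0.11 (SE 0.11, adjusted edgeR p 0.660), and it was 0.06 without malonyl-CoA 1, 0.07 without control 5 and 0.02 (SE 0.09) after the correction for GC content and length.

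Srebf1 (ENSMUSG00000020538, chr11:60199089-60222581, minus strand) had 167, 158, 201 and 143 CPM in malonyl-CoA 1, 3, 4 and 5, against 127, 139, 156 and 72.0 CPM in controls 1, 3, 4 and 5. The groups overlapped at 1 control, number 4, and control 5 was far below the rest. Means were 167 ± 24.6 and 124 ± 36.4 CPM (SD, n = 4 each), a log2 fold change of 0.44 (SE 0.22) with an unadjusted edgeR p of 0.0752 and an adjusted p of 0.523. It was 0.25 without control 5 and 0.02 (SE 0.12) after the correction for GC content and length. Nr1h2, Apoe and Srebf1 were the most GC-rich of the 10 transcripts, at 60.9%, 60.0% and 59.4%, and Abca1 the least, at 47.7%; the part of the GC difference between libraries in their values was measured only through this correction.

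Among the secreted lipoprotein genes, Apoe (ENSMUSG00000002985, chr7:19696109-19699188, minus strand) had 24.5, 24.1, 33.6 and 22.8 CPM in malonyl-CoA 1, 3, 4 and 5, against 23.8, 24.7, 28.7 and 23.1 CPM in controls 1, 3, 4 and 5. The libraries numbered 4 were highest in each group, and the other 6 lay between 22.8 and 24.7 CPM. The log2 fold change was 0.07 (SE 0.15, adjusted edgeR p 0.858), and it was -0.08 without malonyl-CoA 4 and -0.19 after the correction for GC content and length.

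Pltp (ENSMUSG00000017754, chr2:164839518-164857711, minus strand) had 17.1, 23.6, 9.51 and 18.9 CPM in malonyl-CoA 1, 3, 4 and 5, against 13.3, 20.1, 10.3 and 10.8 CPM in controls 1, 3, 4 and 5. In contrast to Apoe, malonyl-CoA 4 was the lowest of all 8 libraries. Pltp had a log2 fold change of 0.34 (SE 0.30, adjusted edgeR p 0.624). It was 0.59 without control 3, 0.53 without malonyl-CoA 4, 0.15 without malonyl-CoA 3 and 0.16 (SE 0.28) after the correction for GC content and length.

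Arl4c (ENSMUSG00000049866, chr1:88673125-88702221, minus strand) had 24.2, 29.2, 25.8 and 28.7 CPM in malonyl-CoA 1, 3, 4 and 5, against 20.1, 26.1, 20.7 and 28.4 CPM in controls 1, 3, 4 and 5. Both groups covered much of the same range. For Arl4c the log2 fold change was 0.18 (SE 0.15, adjusted edgeR p 0.612). It was 0.11 without control 1, 0.12 without control 4, 0.27 without control 5 and 0.02 (SE 0.17) after the correction for GC content and length.

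**Figure D3:**
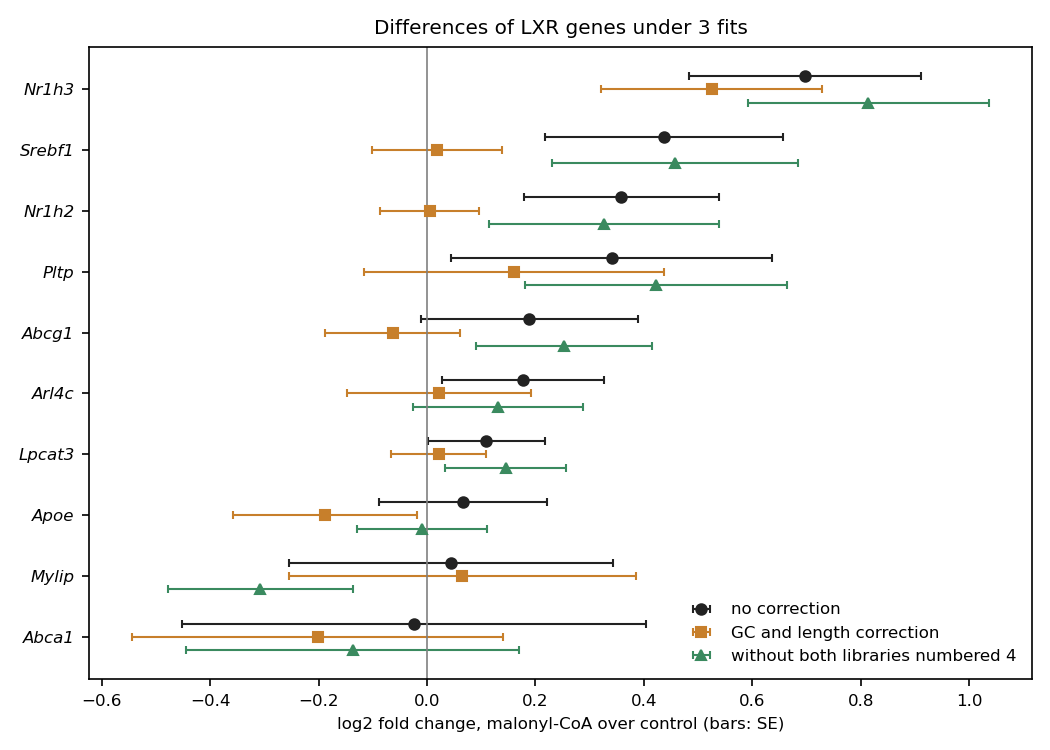
Log2 fold change of malonyl-CoA over control for each gene, with SE bars, with no correction, with a correction for GC content and length, and without both libraries numbered 4. Nr1h3 lies at 0.70, 0.52 and 0.81; Srebf1 lies at 0.44, 0.02 and 0.46.

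Exons of 3 members overlap a gene on the other strand: Lpcat3 shares 334 bases with Emg1, Srebf1 109 with Rai1 and Pltp 495 with Ctsa. The strand setting of the counter is not given in the sources used here, so reads in those bases cannot be assigned with certainty.

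The extremes of the 10 genes lay mostly in the libraries numbered 4 and in control 5. Malonyl-CoA 4 was the highest of 8 libraries in 6 genes (Nr1h2, Abca1, Abcg1, Mylip, Srebf1 and Apoe) and the lowest in Pltp. Control 4 was the next highest in 4 of those 6 (Abca1, Abcg1, Mylip and Apoe). Control 5 was the lowest of 8 in 5 genes (Nr1h2, Nr1h3, Abcg1, Lpcat3 and Srebf1). Without both libraries numbered 4, groups did not overlap in 5 of the 10 genes, with malonyl-CoA above control in Nr1h3, Abcg1, Lpcat3 and Srebf1 and below it in Mylip. Under that setting 26.4% of all tested genes had groups apart, 13.5% with malonyl-CoA above and 12.9% with it below. The count with groups apart was 2 of 10 without control 3, where 8.99% of all tested genes had groups apart. It was 3 of 10 without control 4, malonyl-CoA 4 or malonyl-CoA 5, where 20.7%, 11.2% and 13.0% of all tested genes did.

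**Figure D4:**
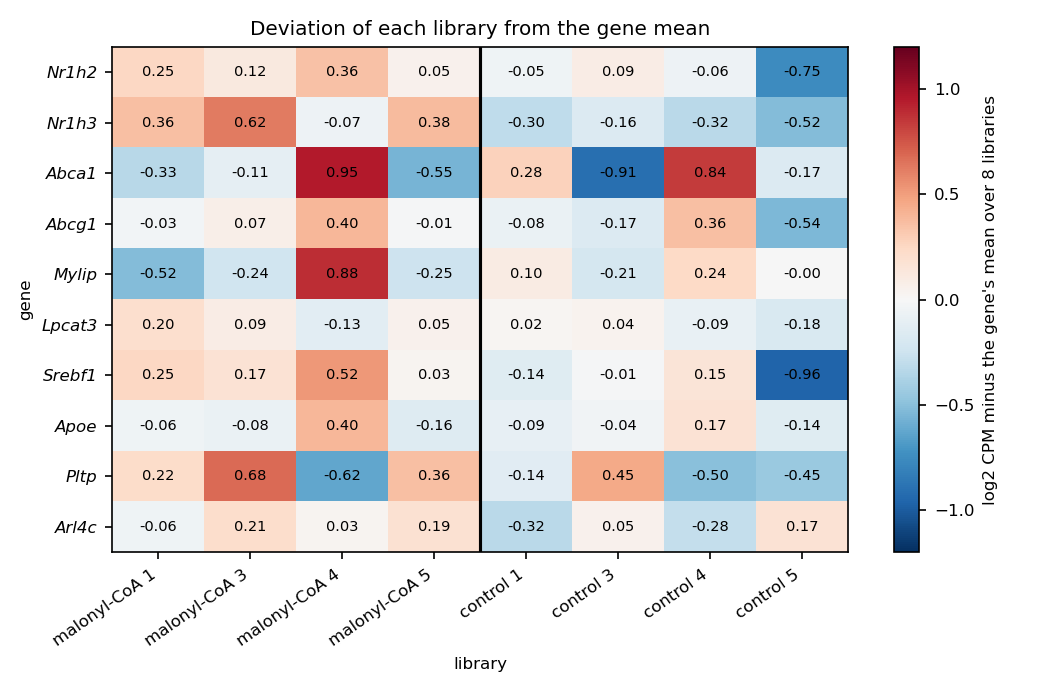
Deviation of each library from the gene's mean log2 CPM over 8 libraries, as colour and number, with malonyl-CoA libraries left of the line and control libraries right of it. Malonyl-CoA 4 is red in 6 rows where it is the highest library and blue in Pltp; control 5 is blue in Nr1h2 and Srebf1.

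The genes with profiles closest to Nr1h3 were found by the root mean square difference of centred log2 CPM over the 8 libraries, among 9170 genes whose mean log2 CPM reached 3. They were Sh3bp4 (0.0939), H2-K1 (0.134), Ppp2r5b (0.140), Castor2 (0.143) and Lrrc25 (0.143), where the median gene stood at 0.444. The root mean square spread of Nr1h3 itself was 0.381. Its counting error was 12.3% to 18.6% per library, so the order of these neighbours is uncertain. For Abca1 the closest were Chdh (0.292), Deptor (0.305), Mgam (0.322), Zfp521 (0.328) and Sgsh (0.334), with a median of 0.640. All 8 points share the libraries and their depth, and no other member of the 10 was among these genes. Nr1h3 and Abca1 lay below a mean log2 CPM of 3, so neither could be found as a neighbour of the other.

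Genes that work with the receptors were read from lists written for these cells. Of 17 retinoid X receptor and coregulator genes, 16 were tested and 0 passed the adjusted threshold in edgeR, DESeq2 or limma-voom. In edgeR 0 had an unadjusted p under 0.05, where 9.38% of all tested genes did. Their median log2 fold change was 0.19, and -0.01 after the correction for GC content and length. Rxra averaged 12.0 ± 0.61 CPM with malonyl-CoA and 9.92 ± 2.62 CPM in control cultures (SD, n = 4 each), and Rxrb averaged 98.6 ± 6.89 and 93.0 ± 23.4 CPM. Rxrg had at most 12 counts in any library and was not tested.

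Of 26 other reported LXR targets, only 13 had enough counts to test, and 5 (Abcg5, Abcg8, Apoc2, Apoc4 and Arg1) had 0 counts in all 8 libraries. Log2 fold changes were above 0 in 11 of the 13, where 53.3% of all tested genes were above 0. Their median was 0.45, and 0.22 after the correction for GC content and length. None passed the adjusted threshold in edgeR, DESeq2 or limma-voom. At an unadjusted edgeR p under 0.05 there were 3 higher (Cd38, Ccr7 and Abca7) and 1 lower (Smpdl3a). Over all tested genes, 5.33% were so higher and 4.05% lower. In that order, log2 fold changes were 0.79, 0.98, 0.61 and -0.36, and 0.92, 0.93, 0.11 and -0.27 after the correction. Fasn averaged 404 ± 115 CPM with malonyl-CoA and 261 ± 113 CPM in control cultures (SD, n = 4 each), a log2 fold change of 0.63 (SE 0.31, adjusted edgeR p 0.523). Acaca, whose enzyme makes malonyl-CoA, averaged 74.8 ± 19.3 and 54.9 ± 16.8 CPM, a log2 fold change of 0.45 (SE 0.23), and 0.22 after the correction. The 3 genes that share the element shown above, Abca1, Srebf1 and Fasn, had log2 fold changes of -0.02, 0.44 and 0.63, and of -0.20, 0.02 and 0.08 after the correction for GC content and length.

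Oxysterol and desmosterol metabolism, which sets the supply of LXR ligands, had 17 of 20 genes tested. Of these, 7 were above and 10 below 0, where 53.3% of all tested genes were above 0. Their median log2 fold change was -0.07. Both counts and median include Acat1 (-0.13), which encodes a mitochondrial acetyl-CoA thiolase and not a sterol enzyme. Ch25h, Cyp46a1 and Hsd3b7 had too few counts to test. None passed in edgeR, and 3 had an unadjusted p under 0.05, 2 higher and 1 lower. Over all tested genes, 5.33% did so in the higher and 4.05% in the lower direction. DESeq2 called 1, Hsd11b1, where it called 0.591% of all genes it tested. This enzyme interconverts glucocorticoids and 7-oxygenated sterols. Hsd11b1 averaged 31.3 ± 2.79 CPM with malonyl-CoA and 46.4 ± 5.79 CPM in control cultures (SD, n = 4 each). Every malonyl-CoA library lay below every control, as in 2.93% of all tested genes. The log2 fold change of Hsd11b1 was -0.57 (SE 0.13, adjusted edgeR p 0.376).

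The 20 targets of SREBP-2, the factor of cholesterol synthesis that answers to low sterol, were all tested. Of these, 14 were above and 6 below 0, where 53.3% of all tested genes were above 0. Their median log2 fold change was 0.11, and 0.01 after the correction for GC content and length. None passed in edgeR, DESeq2 or limma-voom. In edgeR, 4 had an unadjusted p under 0.05, all higher, where 5.33% of all tested genes did so. Among these 4 were Srebf2, Fdps and Mvd. Srebf2, which encodes SREBP-2 itself, averaged 457 ± 29.6 CPM with malonyl-CoA and 358 ± 53.5 CPM in control cultures (SD, n = 4 each). Its groups were apart, with malonyl-CoA above control, as in 3.21% of all tested genes. Its log2 fold change of 0.35 (SE 0.13) was -0.04 after the correction.

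Inflammatory genes that ligand-bound LXR holds down in macrophages had 11 of 14 members tested. All 11 had a log2 fold change above 0, where 53.3% of all tested genes did. Their median was 0.73, and 0.80 after the correction for GC content and length. None passed in edgeR or limma-voom without a block, and 5 had an unadjusted edgeR p under 0.05, all higher, where 5.33% of all tested genes did so. DESeq2 called 1, Tnf, where it called 0.591% of all genes it tested. The replicate block called Il1b (0.992% of all tested genes called), and the block with the correction called Il1b and Ptgs2 (0.299%), all higher. Tnf averaged 22.3 ± 2.82 CPM with malonyl-CoA and 8.64 ± 5.46 CPM in control cultures (SD, n = 4 each). Its malonyl-CoA libraries all stood above the controls, as in 3.21% of all tested genes.

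Monocyte and macrophage markers, cells in which LXRα is typically expressed, stood higher with malonyl-CoA in part of the list. Of 20, 15 were tested and 11 were above 0, where 53.3% of all tested genes were. Their median log2 fold change was 0.36, and 0.31 after the correction for GC content and length. In edgeR, 6 had an unadjusted p under 0.05, all higher, where 5.33% of all tested genes did so. At the adjusted threshold 0 passed. DESeq2 called Csf1r, Fcgr1 and Marco, where it called 0.591% of all genes it tested. The replicate block called Csf1r and Marco (0.992% of all tested genes called). With the correction added, the block called Marco (0.299%). All these were higher. Csf1r averaged 315 ± 27.8 CPM with malonyl-CoA and 219 ± 16.4 CPM in control cultures, and Adgre1 120 ± 20.1 and 116 ± 18.0 CPM (SD, n = 4 each). The 4 tested markers below 0 were Ccr2 (-0.26), Mrc1 (-0.24), Itgam (-0.10) and Ly6c2 (-0.08). Summed over the list, levels ran from 3896 to 4979 CPM with malonyl-CoA and from 3520 to 5087 CPM in control cultures. Most of this sum came from Lyz2 (means of 2157 and 2104 CPM) and Ly6c2 (1128 and 1190 CPM), so it says little about the other markers. The resident macrophage markers Timd4 and Vsig4 had 0 counts in all 8 libraries. Their part in the level of Nr1h3 was not tested.

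**Figure D5:**
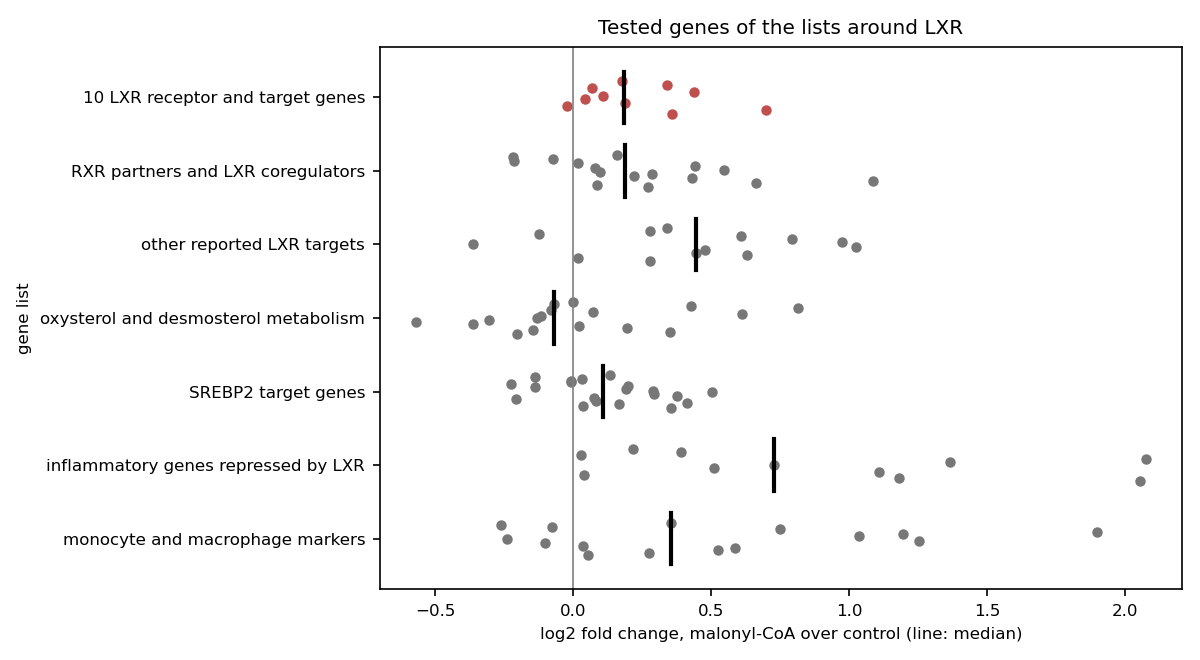
Log2 fold change of malonyl-CoA over control for the tested genes of the 10 LXR genes (red) and 6 lists around them (grey), with the median of each list as a line. Medians run from -0.07 in oxysterol and desmosterol metabolism to 0.73 in inflammatory genes repressed by LXR, beside 0.18 for the 10 LXR genes; no plotted gene passed the adjusted edgeR threshold.

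Other cell types in the cultures were read from marker lists. For comparison, 53.3% of all tested genes were above 0. Neutrophil and granulocyte markers were below 0 in 12 of 13 tested genes with a median of -0.44. Mast cell and basophil markers were below 0 in 8 of 11 with a median of -0.28, and lymphoid markers in 6 of 9 with a median of -0.35. After the correction for GC content and length these 3 medians were -0.33, -0.16 and -0.28. Stem and progenitor markers were split, 7 above and 7 below 0, with a median of -0.01, and -0.12 after the correction. Dendritic cell markers were also split, 6 above and 6 below, with a median of 0.09, and 0.07 after the correction. Megakaryocyte and platelet markers had 4 above and 6 below, with a median of -0.03, and -0.14 after the correction. Erythroid markers had 2 of 6 tested genes above 0 and stromal, endothelial and hepatocyte markers 3 of 5, with Alas2, Slc4a1, Col3a1, Alb and Dcn at 0 counts in all 8 libraries. None passed in edgeR without a block. DESeq2 called Fscn1, a dendritic cell marker, higher, and Rag2, a lymphoid marker, and Cd34, a progenitor marker, lower. It called 0.591% of all genes it tested. The replicate block called Fscn1 higher and the neutrophil markers Chil3 and S100a8 lower (0.992% of all tested genes called). With the correction added, the block called 0 in these lists (0.299%). Their part in the levels of the 10 genes was not tested.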

How the data were processed

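Libraries for RNA sequencing used 350 ng of RNA each and a strand-specific kit for total RNA, per the labels' protocols. The deposited values are raw counts, 1 per Ensembl gene and library, made by the authors on GRCm38 (HTSeq 0.6.1, STAR 2.5.2b, cutadapt 1.8), per the submitters' processing notes. Neither the annotation release nor the strand setting is given in the sources used here. Of all tallied reads, 1.11% to 2.94% fell in no counted feature, 0.715% to 0.891% were ambiguous and 38.2% to 51.1% had several positions. These classes stayed out of library sizes and tests. Of 48709 identifiers, 48349 matched GENCODE M21, the source of symbols, coordinates, exon lengths and GC content (known for 99.9% of tested genes). Groups were taken from the sample titles.

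Counts were tested in R 4.3.3 with edgeR 4.0.16: filterByExpr (minimum count 10, minimum total 15), TMM factors, robust glmQLFit and the two-sided glmQLFTest without covariates, adjusted by Benjamini-Hochberg over 12696 genes at 0.05. Log2 fold changes give malonyl-CoA over control. Their SE is the absolute change over the square root of F. DESeq2 1.42.0, limma-voom (limma 3.58.1), other normalization and filters, libraries left out, a replicate block, and a loess correction per library for GC content and length (span 0.5, genes with mean log2 CPM of at least 2) were alternatives. The edgeR step was tested on simulated counts first. A group is apart from the other where all of its CPM values lie on one side. Counting errors are Poisson and cover counting only.

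All 10 members may be named, as may up to 4 tested genes per list with the smallest unadjusted p, and Rxra, Rxrb, Rxrg, Fasn, Acaca, Srebf2, Csf1r and Adgre1. Genes at 0 counts or too low to test, overlapping genes and genes named by another tool's call were added after their values were seen. So were Lyz2, Ly6c2, Ccr2, Mrc1, Itgam and Acat1. The members, lists and element letters were chosen with earlier results of these data known. Some list genes are not reported here. Promoter windows are RefSeq's on GRCm38.p6.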

Additional observations from a re-analysis of the deposited data

Results flagged for a closer look

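Of 82 groups of 4 libraries examined, 6 held a library far from the other 3 of its group (by the gap to the nearest library over the group's range). Chance gives about 1 such group in 20. Malonyl-CoA 4 was the library that stood apart in 5 of them. It was far above the other malonyl-CoA libraries in Mylip, at 15.2 CPM, and in Apoe, at 33.6 CPM. It was also far above them in Gps2, a corepressor complex subunit, at 40.4 CPM, and in Gramd1a, a cholesterol transfer protein, at 79.4 CPM. In Fcgr1, a macrophage Fc receptor gene, it was far below them, at 7.24 CPM. The remaining case was control 5, in which Nr1h3 was 6.31% of both receptor transcripts per length, above the other controls. Nr1h3 itself was not high there. At 1.41 CPM it was the lowest of the 8 libraries, as was Nr1h2 at 27.9 CPM.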

How the results depend on the processing

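Nr1h2, Nr1h3, Lpcat3, Srebf1, Pltp and Arl4c had a positive log2 fold change under all 22 alternatives, and no member passed the threshold under any. The number of members above 0 ran from 6 to 10. Genes past the threshold over the whole table numbered 0, but 1 with no low-count filter (Marco), 82 with DESeq2, 126 with the replicate block, 38 with the correction for GC content and length and the replicate block, and 0 to 1 with a library left out (Bcl3 without control 3). Under the replicate block Srebf1 was at 0.48 (adjusted edgeR p 0.0942) and Nr1h3 at 0.68 (adjusted edgeR p 0.0985), and of the other reported targets Fasn passed, a call that was lost with the correction for GC content and length and the block. The deviations of same-numbered libraries correlated at 0.64, 0.51, 0.82 and 0.03 for numbers 1, 3, 4 and 5. Correlations of differently numbered libraries are not given for comparison, so a likeness by number was not shown. The labels do not say that the numbers pair the libraries, so the main fit had no block and the block was an alternative. The number of members with groups apart was 1 to 3 with a library left out (7.27% to 20.7% of all tested genes), 2 without both libraries numbered 3 (10.7%), 5 without both numbered 4 (26.4%), 3 without both numbered 5 (17.4%) and 3 without control 5 and malonyl-CoA 4 (15.4%). Of the 10 members, 4 changed sign. Abca1 was at 0.0217 with library size only, 0.15 without both libraries numbered 1, 0.0539 without both numbered 5, and -0.49 to 0.32 with a library left out. Abcg1 was at -0.0513 without control 5 and malonyl-CoA 4, -0.0631 with the GC and length correction and -0.0576 with that and the block. Mylip was at -0.0465 with the replicate block, -0.31 without both libraries numbered 4, -0.39 without control 5 and malonyl-CoA 4, -0.0514 with limma-voom, -0.0381 with the correction and the block, and -0.38 to 0.20 with a library left out. Apoe was at -0.010 without both libraries numbered 4, -0.11 without control 5 and malonyl-CoA 4, -0.19 with the correction, alone or with the block, and -0.0843 to 0.14 with a library left out. The Nr1h3 share in control was 3.83% without division by length. The causes of these shifts were not tested. Nr1h3 rested on 29 to 66 counts per library.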
